A study of Mus musculus with 6 samples.

Results

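The constitutive proteasome subunits are the genes of the standard proteasome, here every row of the deposited count table whose symbol begins Psma, Psmb, Psmc or Psmd followed only by a number, without the inducible Psmb8, Psmb9 and Psmb10. They numbered 36 of the 23197 genes listed, 16 of the core particle, 17 of the regulatory particle and 3 chaperones of the regulatory particle's base. RNA was sequenced from mouse primary vascular smooth muscle cells (VSMCs), the contractile cells of the artery wall, bought from a commercial supplier. One group was transfected with siRNA against Arid3a, a transcription factor whose ARID domain contacts AT-rich DNA (siArid3a, 3 libraries), the other with a negative control (control, 3 libraries), and the cells were incubated for 24 h. Treatment with angiotensin II, an aneurysm-related stimulus, is described in the labels without saying whether these libraries received it. Whether the numbers 1 to 3 on the siArid3a libraries mark different siRNA sequences or repeats is not stated. Nothing names separate cultures or animals, so p-values measure only the spread between these libraries, which may be technical.

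The proteasome is the barrel-shaped protease that degrades ubiquitin-tagged proteins. Its core particle stacks rings of alpha subunits, which form the gate, around rings of beta subunits, some of which carry the cutting sites. The regulatory particle that caps it has a base, whose ATPases unfold the substrate, and a lid, which takes the ubiquitin off. Subunits are used in fixed proportions, and the transcription factor Nfe2l1 is known to raise many of their genes together when proteasome activity falls short. In vascular smooth muscle the proteasome is studied for its part in cell growth and in the turnover of contractile proteins.

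Promoter sequences are shown because the siRNA was aimed at a DNA-binding protein and the subunit genes are known to be regulated together. RefSeq promoters (GRCm38.p6) were matched for 29 of the 36 genes, and the 250 bases before each start were searched on both strands. A gene counted if any of its promoters held the motif, and 2 of the 29 had 2 promoters. CCGGAAG, the core of the sites that ETS factors bind, was present in 8 of 14 regulatory particle genes (57.1%) and 1 of 12 core particle genes (8.33%). Over the 29 genes it was present in 9 (31.0%), and in 15.6% of 9853 genes tested for expression. The core gene, Psma6, held it in a promoter inside the annotated gene, not before its listed start. The same limit holds for part of the regulatory particle count. The matches of Psmc1 and Psmd12 also lay inside the annotated gene, and that of Psmd6 reached into its first annotated base. TGACNNNGC, the core of the element that Nfe2l1 and Nfe2l2 read, was present in 5 of 29 genes (17.2%), against 13.8% of the tested genes. Those 5 are Psmb5, Psmb6, Psmc6, Psmd12 and Psmd9, and the match of Psmd9 lay in a promoter inside the annotated gene. CCAAT, the NF-Y box, was present in 12 of 29 (41.4%), against 41.1% of the tested genes. By particle its shares ran the other way from those of CCGGAAG. It was present in 7 of 12 core particle genes (58.3%) and 4 of 14 regulatory particle genes (28.6%). The core count includes Psmb11, whose match lay inside the annotated gene. AATTAA, an AT-rich motif of ARID3 proteins, was present in 2 of 29 (6.90%), Psmd11 and Psma2, against 7.06%. None of the 4 motifs contains another, no test was made of the shares, and a match describes letters, not a bound site. The windows printed here lie upstream of the annotated starts and are written 5′ to 3′ on the strand of the gene, with CCGGAAG, TGACNNNGC or their reverse complements (CTTCCGG, GCNNNGTCA) in capitals. The first 5 are of the regulatory particle and hold the ETS core, and the last 2 are of catalytic core subunits.

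Psmc2, chr5:21785135-21785274, plus strand: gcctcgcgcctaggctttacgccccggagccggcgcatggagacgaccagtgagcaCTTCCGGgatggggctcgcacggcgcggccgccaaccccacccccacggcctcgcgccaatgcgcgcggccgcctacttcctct
Psmc6, chr14:45329574-45329787, plus strand: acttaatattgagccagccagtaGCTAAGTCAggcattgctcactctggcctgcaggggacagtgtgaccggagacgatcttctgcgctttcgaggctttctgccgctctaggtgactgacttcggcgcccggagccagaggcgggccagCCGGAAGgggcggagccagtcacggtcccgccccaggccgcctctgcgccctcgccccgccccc
Psmd2, chr16:20651512-20651651, plus strand: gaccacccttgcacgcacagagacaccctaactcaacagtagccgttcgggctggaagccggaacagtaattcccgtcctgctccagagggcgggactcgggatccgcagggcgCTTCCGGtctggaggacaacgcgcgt
Psmd4, chr3:95042615-95042754, minus strand: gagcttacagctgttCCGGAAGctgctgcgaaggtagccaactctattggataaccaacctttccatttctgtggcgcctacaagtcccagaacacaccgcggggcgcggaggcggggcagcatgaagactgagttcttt
Psmd11, chr11:80428475-80428614, plus strand: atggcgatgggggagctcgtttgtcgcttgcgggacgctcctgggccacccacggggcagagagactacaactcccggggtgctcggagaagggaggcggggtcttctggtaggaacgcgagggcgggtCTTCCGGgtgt
Psmb5, chr14:54618023-54618162, minus strand: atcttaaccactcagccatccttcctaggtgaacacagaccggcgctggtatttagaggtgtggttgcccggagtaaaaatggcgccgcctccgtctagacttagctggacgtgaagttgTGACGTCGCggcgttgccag
Psmb6, chr11:70525217-70525356, plus strand: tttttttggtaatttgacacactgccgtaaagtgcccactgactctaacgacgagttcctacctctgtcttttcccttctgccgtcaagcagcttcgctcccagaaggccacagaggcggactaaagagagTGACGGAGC

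Total gene counts were 17029735 to 22799935 in the siArid3a libraries and 17057300 to 22189166 in the control libraries. Levels are given in CPM, counts relative to the TMM-scaled library total, and differences as log2 fold changes of siArid3a over control from edgeR's quasi-likelihood test over all 13234 genes that passed its filter on low counts. Arid3a had 16.6, 21.5 and 19.8 CPM in siArid3a libraries 1 to 3, against 19.5, 16.8 and 22.6 CPM in control libraries 1 to 3. The groups overlapped (log2 fold change -0.03, SE 0.13, edgeR adjusted p = 0.943; two-sided exact permutation p = 0.8, where the smallest possible is 0.1), so no knockdown was seen at the transcript level. The name siArid3a therefore means the libraries labelled so. Of 9 smooth muscle markers, Acta2, Cald1 and Tpm2 each averaged more than 200 CPM in both groups. The defining marker Myh11 had 0.0525 to 0.48 CPM in siArid3a libraries and 0.104 to 0.363 CPM in control libraries. Tagln, which other genes cover except for 32.1% of its exons, averaged 1.22 ± 0.402 CPM in siArid3a libraries and 1.46 ± 0.306 CPM in control libraries. The summed level of the fibroblast list was 1278 to 1625 CPM in siArid3a libraries and 1435 to 1734 CPM in control libraries. Most of that sum was Col1a1, at 1061 ± 144 CPM in siArid3a libraries and 1003 ± 131 CPM in control libraries (log2 fold change 0.08). Dcn was lower in every siArid3a library than in any control library, at 371 ± 55.2 CPM in siArid3a libraries and 519 ± 74.7 CPM in control libraries (SD, n = 3 each), and was called by DESeq2 (adjusted p = 0.0103) and by edgeR after correction for GC content and length (adjusted p = 0.0343) but not by edgeR as fitted (log2 fold change -0.48, SE 0.12, edgeR adjusted p = 0.114). RNA was measured from whole cultures, so fewer cells of a type and less RNA per cell cannot be told apart.

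No constitutive subunit passed the test for a difference between the groups. Of the 36 genes, 34 passed the filter on low counts, and 0 of the 34 had an edgeR adjusted p under 0.05, against 0 of 13234 genes, or 0.0%. DESeq2 called 0 of the 34 against 218 of 10604 genes (2.06%), and edgeR after correction for GC content and length (removal of the trend of log2 CPM with both in each library) called 0 of the 34 against 400 of 13234 (3.02%). At an unadjusted p under 0.05 the count was 1 of 34, Psmc6, against 14.9% of all genes tested (7.36% higher and 7.57% lower in siArid3a). The groups did not overlap in CPM for 4 of the 34 (11.8%), Psmd11 and Psmd9 higher and Psmc5 and Psmd2 lower in siArid3a, against 20.0% of all genes tested (9.66% higher and 10.4% lower). Neither of the last 2 shares exceeded that of the whole table. With 1 library left out at a time the subunit genes called numbered 0 each time, while the count over all genes tested was 135 without control library 2, 94 without control library 3 and 37 without siArid3a library 2.

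The fold changes of the subunit genes were small. They ran between -0.24, for Psmd10, and 0.24, for Psmc6, on the log2 scale, and none of the 34 reached 0.25 in either direction, against 24.0% of all genes tested. This count of 0 depends on the processing: Psmd10 reached -0.27 after GC and length correction and -0.26 scaled by library size alone, and with 1 library left out 1 or 2 of Psma3, Psmc6 and Psmd10 reached 0.25 in 4 of 6 cases, up to 0.35 for Psmc6 without control library 2 and down to -0.39 for Psmd10 without control library 3. Among the 5109 genes whose mean CPM lay in the range of the members, 40.2 to 519.8 CPM, 9.88% reached it. The median absolute log2 fold change was 0.047 for the 34 genes, 0.097 for those 5109 genes and 0.131 for all genes tested. For the 34 genes it was 0.078 after GC and length correction and 0.099 without control library 2, 0.072 without control library 3, 0.081 without siArid3a library 1 and 0.085 without siArid3a library 2. Positive values were found for 23 of 34 subunit genes, 10 of 14 in the core particle and 11 of 17 in the regulatory particle, against 48.9% of all genes. The median log2 fold change was 0.014 for the 34, 0.028 for the 5109 genes in their CPM range and -0.006 for all genes. The 95% intervals of the 31 core and regulatory particle genes lay between a fold of 0.815 and a fold of 1.38, so larger differences in the mean lie outside the interval of every one of them.

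**Figure D1:**
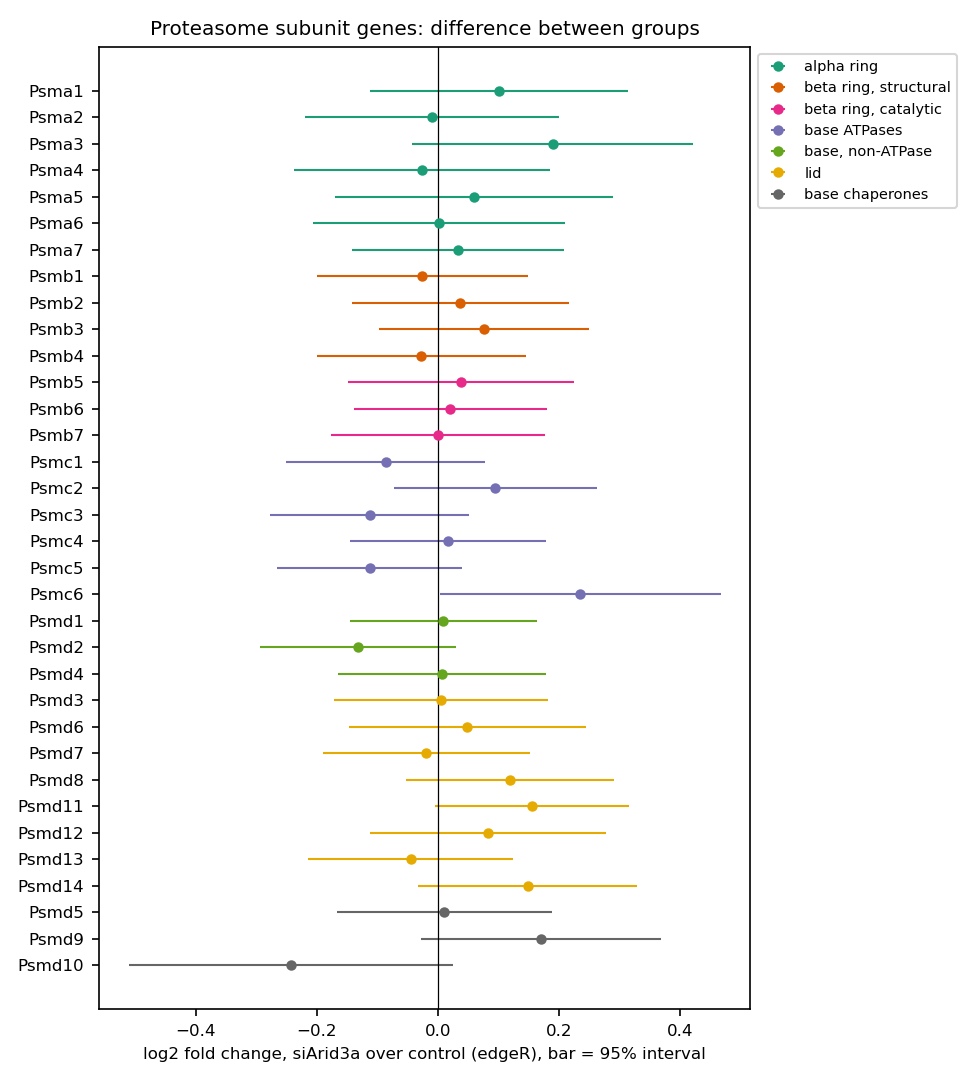
Log2 fold change of siArid3a over control (edgeR; point) with its 95% interval (bar) for each of the 34 constitutive subunit genes tested, coloured by role in the proteasome. All points lie between -0.24 and 0.24, and the intervals of all genes except Psmc6 span 0.

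The core particle genes differed little between the groups. Summed over its 14 tested genes, the core particle held 2521 ± 154 CPM in siArid3a libraries and 2465 ± 234 CPM in control libraries (SD, n = 3 each), and the median of their log2 fold changes was 0.027. It was -0.030 without control library 3 and -0.031 without siArid3a library 3. The groups overlapped in all 14 genes. Psma8, the alpha subunit of the testis form of the core, had 1 count in all, in control library 2. Psmb11, the catalytic subunit of the thymus form, had 1 count in all, in siArid3a library 1. Neither was tested.

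The alpha ring, which gates the chamber, had 7 tested genes, 5 of them with log2 fold changes above 0 and a median of 0.033. Psma3, the alpha subunit with the smallest unadjusted p, had 238, 184 and 229.5 CPM in siArid3a libraries 1 to 3, against 187, 219 and 166 CPM in control libraries 1 to 3. SiArid3a library 2 lay below 2 of the 3 controls in this gene, and the groups overlapped (log2 fold change 0.19, SE 0.11, edgeR adjusted p = 0.428; 95% interval of the fold 0.971 to 1.34). Its log2 fold change was 0.13 after GC and length correction, 0.31 without control library 2, 0.30 without siArid3a library 2, 0.12 without siArid3a library 1 and 0.10 without control library 3. Of the exonic bases of Psma3, 45.3% lie outside the span of 3110056K07Rik, introns included. How many of the rest are exon in both genes was not measured. Reads from shared bases can be lost or added in counting. Psma1 had 122, 109.9 and 139 CPM in siArid3a libraries 1 to 3, against 116, 127 and 102 CPM in control libraries 1 to 3. Its highest value came from a siArid3a library and its lowest from a control library, with the other 4 between them in mixed order (log2 fold change 0.10, SE 0.10, edgeR adjusted p = 0.673). Psma6, the subunit gene with the highest level per kb of exon, had 242, 225 and 258 CPM in siArid3a libraries 1 to 3, against 237, 277 and 209 CPM in control libraries 1 to 3. Control libraries held both the highest and the lowest value of Psma6, and its log2 fold change was 0.00 with an SE of 0.10. Of the other alpha subunits, Psma2 had a log2 fold change of -0.01, Psma4 -0.03, Psma5 0.06 and Psma7 0.03, with edgeR adjusted p of 0.844 to 0.975.

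The beta ring subunits without a cutting site are Psmb1, Psmb2, Psmb3 and Psmb4, and the median of their log2 fold changes was 0.006. Psmb3, with the smallest unadjusted p of them, had 258, 242 and 275 CPM in siArid3a libraries 1 to 3, against 247, 262 and 227 CPM in control libraries 1 to 3. The siArid3a values sat slightly above the control values of the same rank while the groups overlapped (log2 fold change 0.08, SE 0.08, edgeR adjusted p = 0.702). Psmb1 had a log2 fold change of -0.03, Psmb2 0.04 and Psmb4 -0.03. Psmb2 averaged 106 ± 10.6 CPM in siArid3a libraries and 104 ± 2.22 CPM in control libraries (SD, n = 3 each).

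The catalytic subunits of the standard core did not differ beyond the spread between libraries. Psmb5, which carries the chymotrypsin-like site that bortezomib blocks, had 119, 123 and 139 CPM in siArid3a libraries 1 to 3, against 118, 136 and 117 CPM in control libraries 1 to 3. Psmb6, with the caspase-like site, had 165, 181 and 181 CPM in siArid3a libraries 1 to 3, against 166, 179 and 175 CPM in control libraries 1 to 3. Psmb7, with the trypsin-like site, had 132, 125 and 136 CPM in siArid3a libraries 1 to 3, against 135, 140.4 and 118 CPM in control libraries 1 to 3. In each of these genes the groups overlapped, and the log2 fold changes were 0.04 (SE 0.09) for Psmb5, 0.02 (SE 0.08) for Psmb6 and 0.00 (SE 0.08) for Psmb7, with edgeR adjusted p of 0.882 to 0.997. Their 95% intervals reached from a fold of 0.885 to a fold of 1.17. Reads of Psmb5 can be split with its processed copy Gm3375, which matches it over 796 bases at 95% identity or more. That copy held 956, 660 and 882 counts in siArid3a libraries 1 to 3, against 873, 1185 and 750 counts in control libraries 1 to 3.

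No regulatory particle gene was called. The median absolute log2 fold change was 0.086 in the regulatory particle and 0.030 in the core, a contrast that was not tested and that depends on the processing. It was 0.073 in the regulatory particle and 0.079 in the core after GC and length correction, 0.1003 and 0.0962 without control library 2, and 0.075 and 0.063 without control library 3. Summed over 17 genes the regulatory particle held 3968 ± 173 CPM in siArid3a libraries and 3911 ± 198 CPM in control libraries (SD, n = 3 each), and the median of their log2 fold changes was 0.009, or -0.006 when scaled by library size alone and -0.020 without siArid3a library 3. The core median exceeded the regulatory particle median by 0.017 on the log2 scale, and the same difference taken library by library had an SD of 0.057 between replicates, which is larger; without control library 3 the difference was -0.032.

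The base ATPases, which form the ring that unfolds substrates and threads them into the core, were divided: 3 of 6 had log2 fold changes above 0 and 3 below, with a median of -0.035. Psmc6 (ENSMUSG00000021832, chr14:45329788-45349705, plus strand, mm10) had the smallest p of all subunit genes, with 379, 316 and 400.4 CPM in siArid3a libraries 1 to 3, against 309, 356 and 265 CPM in control libraries 1 to 3. The 2 highest values came from siArid3a libraries, and control library 2 lay above siArid3a library 2 (log2 fold change 0.24, SE 0.11, edgeR adjusted p = 0.326; unadjusted p = 0.0469; 95% interval of the fold 1.00 to 1.38). After GC and length correction its log2 fold change was 0.13. It was 0.35 without control library 2 (edgeR adjusted p = 0.0874) and 0.14 without control library 3 (edgeR adjusted p = 0.583). Its transcript has the lowest GC content of the 34 genes, 37.0%. Psmc1, with the highest level per kb of exon in the regulatory particle, had 251, 243 and 261 CPM in siArid3a libraries 1 to 3, against 254, 287 and 260.4 CPM in control libraries 1 to 3. Its groups overlapped (log2 fold change -0.09, SE 0.08, edgeR adjusted p = 0.641). Psmc5, singled out after its values were seen because its groups did not overlap, had 170.3, 179.9 and 179 CPM in siArid3a libraries 1 to 3, against 187, 191 and 195 CPM in control libraries 1 to 3. Its siArid3a values were all below its control values, without a call (log2 fold change -0.11, SE 0.07, edgeR adjusted p = 0.477), and the log2 fold change was -0.06 after GC and length correction. Psmc2 had a log2 fold change of 0.10, Psmc3 -0.11 and Psmc4 0.02, with edgeR adjusted p of 0.517 to 0.94.

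The non-ATPase base subunits hold the scaffold and the ubiquitin receptor. Psmd2 (ENSMUSG00000006998, chr16:20651652-20663414, plus strand), a scaffold subunit to which ubiquitin receptors dock, was singled out after its values were seen, since its groups did not overlap: it had 485, 501 and 503 CPM in siArid3a libraries 1 to 3, against 545, 564 and 523 CPM in control libraries 1 to 3. All 3 siArid3a values lay below all 3 control values, by a difference that was not called (log2 fold change -0.13, SE 0.08, edgeR adjusted p = 0.43; 95% interval of the fold 0.815 to 1.02). After GC and length correction its log2 fold change was -0.08. Psmd1, the other large scaffold subunit, averaged 233 ± 5.01 CPM in siArid3a libraries and 231 ± 8.59 CPM in control libraries (log2 fold change 0.01). Psmd4, a ubiquitin receptor, averaged 203 ± 18.6 CPM in siArid3a libraries and 201 ± 1.55 CPM in control libraries (log2 fold change 0.01; SD, n = 3 each). In both genes the groups overlapped.

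Lid genes had a median of 0.066 on the log2 scale, with 6 of 8 above 0. Psmd11 (ENSMUSG00000017428, chr11:80428615-80473248, plus strand), which ties the lid to the base and the core, had 211, 213 and 229 CPM in siArid3a libraries 1 to 3, against 203, 198 and 185 CPM in control libraries 1 to 3. All 3 siArid3a values lay above all 3 control values, without a call (log2 fold change 0.15, SE 0.08, edgeR adjusted p = 0.346; 95% interval of the fold 0.996 to 1.24), and the log2 fold change was 0.07 after GC and length correction. Psmd14, the deubiquitinase that cuts ubiquitin chains off the substrate, had 263, 237 and 276 CPM in siArid3a libraries 1 to 3, against 226, 255 and 219 CPM in control libraries 1 to 3. Control library 2 lay above siArid3a library 2, so the groups overlapped (log2 fold change 0.15, SE 0.08, edgeR adjusted p = 0.427). Psmd13, with the lowest level per kb of exon in the regulatory particle, had 98.8, 91.4 and 97.5 CPM in siArid3a libraries 1 to 3, against 96.0, 106 and 94.6 CPM in control libraries 1 to 3. The groups overlapped (log2 fold change -0.04, SE 0.08, edgeR adjusted p = 0.84). Psmd3, Psmd6, Psmd8, Psmd12 and, like them, Psmd11 and Psmd13 build the horseshoe of the lid, and Psmd7 is the partner of Psmd14. Psmd3 had a log2 fold change of 0.00, Psmd6 0.05, Psmd7 -0.02, Psmd8 0.12 and Psmd12 0.08, with edgeR adjusted p of 0.506 to 0.986.

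Base chaperones, which help the ATPase ring assemble and leave the finished particle, stood at both ends of the range, and Psmd9 and Psmd10 were singled out after their values were seen. Psmd10 (gankyrin; ENSMUSG00000031429, chrX:140948429-140956728, minus strand) had 51.5, 44.6 and 45.7 CPM in siArid3a libraries 1 to 3, against 58.2, 66.1 and 43.4 CPM in control libraries 1 to 3. Control library 3 held the lowest of the 6 values and control library 2 the highest, so the groups overlapped although the mean was lower in siArid3a (log2 fold change -0.24, SE 0.13, edgeR adjusted p = 0.378; 95% interval of the fold 0.702 to 1.02). Its adjusted p was 0.0673 after GC and length correction and 0.0794 to 0.737 in the other 14 alternatives. Its log2 fold change was -0.10 without control library 2 and -0.39 without control library 3. Psmd9 had 42.7, 38.7 and 46.3 CPM in siArid3a libraries 1 to 3, against 38.2, 38.4 and 37.0 CPM in control libraries 1 to 3. Its lowest siArid3a value lay just above its highest control value (log2 fold change 0.17, SE 0.09, edgeR adjusted p = 0.405), and other genes cover all but 59.4% of its exons. Psmd5 averaged 137 ± 7.46 CPM in siArid3a libraries and 136 ± 12.2 CPM in control libraries (log2 fold change 0.01; SD, n = 3 each).

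The subunit genes varied together between libraries of the same group by more than they differed between the groups. Control library 2 was the highest of the 3 controls in 14 of 14 core genes, 14 of 17 regulatory particle genes and 31 of the 34 in all, against 36.3% of all genes tested. Control library 3 was the lowest control in 12 of 14 core genes and 26 of the 34, against 37.3% of all genes. Among siArid3a libraries, library 3 was the highest in 11 of 14 core genes, 14 of 17 regulatory particle genes and 27 of the 34, against 38.4% of all genes. SiArid3a library 2 was the lowest of its group in 22 of the 34, against 34.7% of all genes. The genes were counted in the same libraries, so these counts describe 6 libraries and are not 34 independent observations.

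In log2 CPM relative to the control mean, the median core gene stood at 0.02, -0.05 and 0.11 in siArid3a libraries 1 to 3, against -0.01, 0.13 and -0.14 in control libraries 1 to 3. The 2 extremes, 0.273 apart, were both control libraries. The median regulatory particle gene stood at 0.00, -0.01 and 0.11 in siArid3a libraries, against -0.03, 0.08 and -0.06 in control libraries, and its extremes were 0.164 apart. The alpha ring varied most, with medians of 0.07, -0.09 and 0.11 in siArid3a libraries, against -0.01, 0.20 and -0.20 in control libraries, 0.402 from end to end. The median over all genes lay within 0.0034 of 0 in every library.

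**Figure D2:**
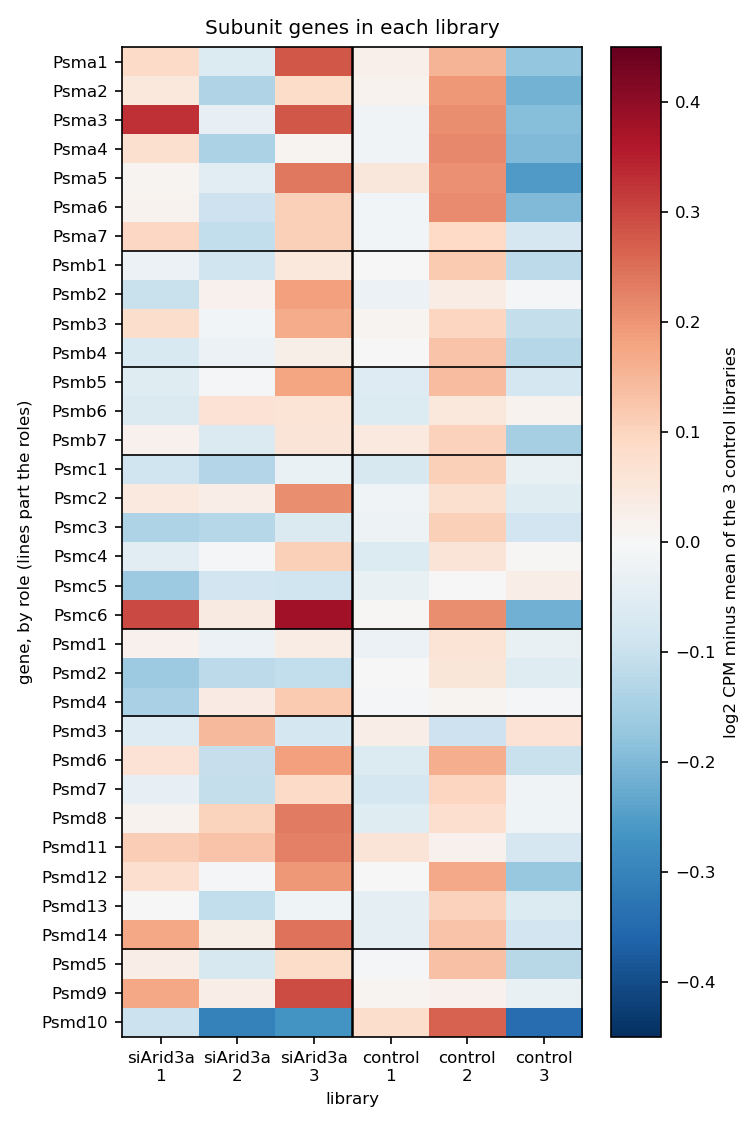
Log2 CPM of each of the 34 subunit genes minus its mean in the 3 control libraries, with siArid3a libraries 1 to 3 on the left and control libraries 1 to 3 on the right, and lines between the roles. The columns of control library 2 and siArid3a library 3 are mostly red and that of control library 3 mostly blue, most of all in the alpha ring at the top.

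Partner genes shared this order in part. Core assembly genes had medians of 0.03, 0.03 and 0.19 in siArid3a libraries, against 0.00, 0.10 and -0.12 in control libraries, and other regulatory particle partners had 0.12, 0.02 and 0.21, against -0.02, 0.13 and -0.12. Activator genes had 0.003, 0.05 and 0.17, against 0.002, 0.03 and -0.05. The regulator list did not share the order, at 0.06, -0.003 and 0.03 in siArid3a libraries, against 0.001, -0.04 and 0.03 in control libraries. Control library 2 was its lowest. Genes of ubiquitin supply and delivery differed little, at 0.06, 0.03 and 0.01 in siArid3a libraries, against -0.02, 0.02 and 0.02 in control libraries. Cell type markers also varied between the libraries. The median smooth muscle marker, of 8 tested, stood at -0.09, 0.02 and 0.22 in siArid3a libraries, against -0.01, 0.07 and -0.03 in control libraries, highest in siArid3a library 3 and control library 2 within their groups, as the subunits were. The median fibroblast marker, of 5 tested, stood at -0.16, 0.07 and -0.15 in siArid3a libraries, against 0.21, -0.22 and 0.03 in control libraries, a range of 0.433 in which siArid3a library 3 and control library 2 were low where the subunits were high. Their part in the pattern of the subunits was not tested.

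Medians of low-GC and high-GC genes differed between the same libraries. The 2645 tested genes in the lowest quintile of transcript GC content had medians of 0.12, 0.01 and 0.15 in siArid3a libraries, against 0.01, 0.09 and -0.10 in control libraries. Those in the highest quintile had -0.07, 0.01 and -0.14, against 0.00, -0.11 and 0.12. The subunit transcripts had a median GC content of 49.4%, as did all genes tested (49.4%). After removal of each library's trend with GC content and length, control library 2 was still the highest control in 27 of the 34 and 11 of 14 core genes, and control library 3 the lowest in 22 and 11. SiArid3a library 3 was then the highest of its group in 27 and 11. The median core gene then stood at 0.01, -0.02 and 0.15 in siArid3a libraries, against -0.01, 0.10 and -0.07 in control libraries.

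Across genes, the log2 fold change between groups was lower for transcripts of higher GC content in the regulatory particle (Pearson r = -0.75, Spearman rho = -0.65, 17 genes). The relation was weaker over the 34 subunit genes (r = -0.33, rho = -0.29) and over 13221 genes tested with a known GC content (r = -0.21, rho = -0.27). In the core particle r was -0.18 over 14 genes. Genes share libraries and are not independent replicates, so these are descriptions. With the trend removed, r was -0.28 in the regulatory particle, 0.59 in the core particle and 0.23 over the 34 subunit genes, so the sign turned in the core and over all 34. The median log2 fold change was 0.077 in the core particle, 0.061 in the regulatory particle and 0.020 over all genes. The part of GC content in the differences was not tested beyond this removal.

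**Figure D3:**
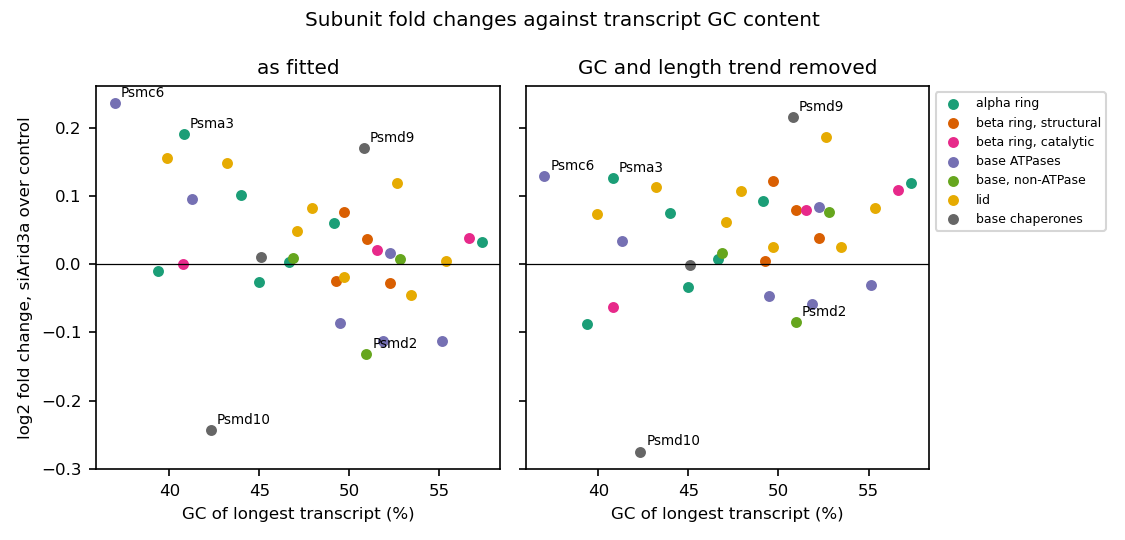
Log2 fold change of siArid3a over control (edgeR) against the GC content of the longest transcript in percent for the 34 subunit genes, coloured by role, as fitted (left) and after GC and length correction (right). Psmc6, at 37.0% GC, falls nearer to 0 on the right (0.13), while Psmd10 stays lowest (-0.27).

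Levels per transcript length showed how unequal the transcripts of subunits used in fixed proportions were. As mean CPM per kb of the longest principal transcript, the core genes ran between 52.7 (Psma2) and 337 (Psmb3) in siArid3a libraries, a 6.40-fold range. They ran between 53.0 and 319.9 in control libraries, a 6.03-fold range, with the same genes at the ends. Psmb3 had 337 ± 21.1 CPM per kb in siArid3a libraries and 319.9 ± 22.7 in control libraries (SD, n = 3 each), above all other core genes, and Psma6, the next, had 232 ± 15.9 CPM per kb in siArid3a libraries and 231 ± 33.0 in control libraries. By this length the catalytic genes were ordered Psmb6, Psmb5 and Psmb7 in both groups. Psmb6 had 220.2 ± 11.3 CPM per kb in siArid3a libraries and 217 ± 8.35 in control libraries, and Psmb5 had 141 ± 12.1 CPM per kb in siArid3a libraries and 137 ± 11.7 in control libraries. For Psmb7 the levels were 113 ± 4.86 CPM per kb in siArid3a libraries and 113 ± 10.2 in control libraries. The SDs of Psmb5 and Psmb7 did not meet in either group.

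Regulatory particle genes ran between 48.2 (Psmd13) and 189 (Psmd8) CPM per kb in siArid3a libraries, and between 49.7 (Psmd13) and 184 (Psmd2) in control libraries. The ATPases spanned a 1.63-fold range in siArid3a libraries and a 1.70-fold range in control libraries by this length, and 3.01-fold and 3.42-fold ranges per kb of the union of exons. Psmd8 had 189 ± 14.5 CPM per kb in siArid3a libraries and 174 ± 8.18 in control libraries. Psmd2 had 168 ± 3.34 CPM per kb in siArid3a libraries and 184 ± 6.93 in control libraries, and in control libraries their SDs overlapped. By this length the chaperone genes lay below every core and regulatory particle gene. Per kb of the union of exons Psmd10, at 32.2 in siArid3a libraries and 38.0 in control libraries, lay above Psmd13 (28.4 and 29.3) and Psmd1 (32.1 and 31.8) in both groups and above Psmd11 in control libraries (30.6). Psmd9 had 16.4 ± 1.48 CPM per kb in siArid3a libraries and 14.6 ± 0.287 in control libraries. Psmd5 had 31.1 ± 1.70 CPM per kb in siArid3a libraries and 30.9 ± 2.78 in control libraries, and Psmd10 had 33.1 ± 2.59 CPM per kb in siArid3a libraries and 39.1 ± 8.06 in control libraries. Medians of the core and the regulatory particle were close, at 133 and 134 CPM per kb in siArid3a libraries and 129 and 136 in control libraries. Counted over the union of all exons instead, the highest core gene was Psma6 and the lowest Psmb7, Psmb5 stood above Psmb6, and Psmc1 was the highest regulatory particle gene, so single ranks depend on which transcript length is used. Reads within introns, if counted, add to these levels.

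**Figure D4:**
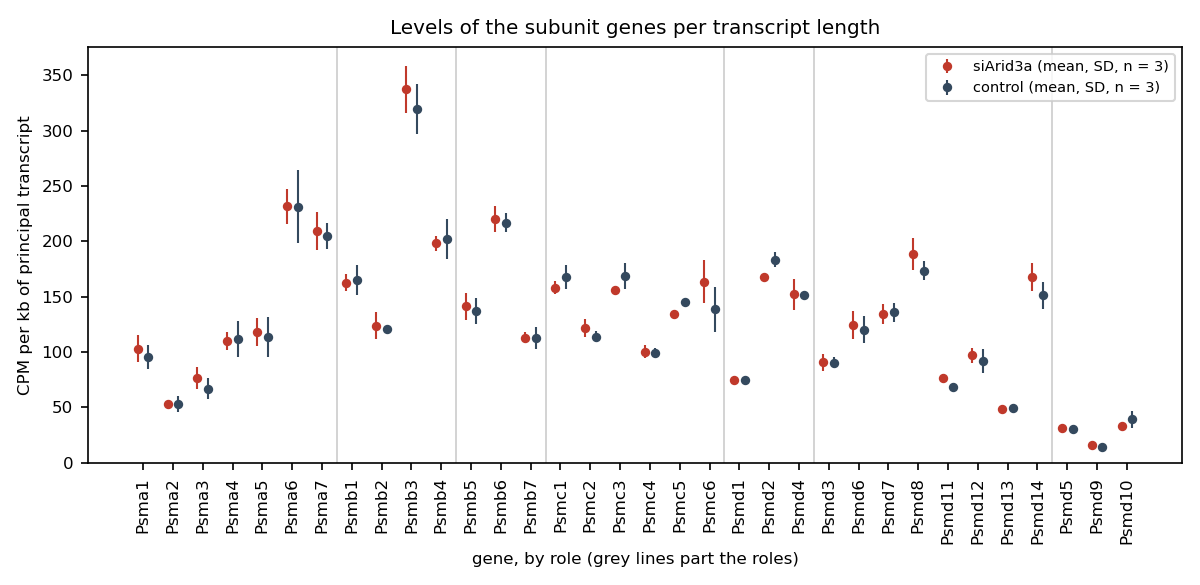
Mean CPM per kb of the longest principal transcript (points, linear axis from 0) with SD over 3 libraries (bars) for the 34 subunit genes, siArid3a left of control for each gene, grey lines between the roles. The chaperones at the right lie lowest and Psmb3 highest, and the bars of the groups overlap in all genes except Psmc5, Psmd2, Psmd9 and Psmd11.

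For 8 of the 34 tested genes, transcripts of other genes matched at 95% identity or more over at least 100 bases, 21 matching genes in all. Not all of these are copies of a subunit gene. The 8 found for Psma3 include Il17f, which matched over 118 bases only. Apart from Gm3375, the genes matching any 1 subunit gene that are listed in the count table held at most 87 counts together over the 6 libraries.

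Genes that work with the proteasome, from lists of activators, assembly factors, other partners, regulators and ubiquitin supply, had no calls either. Of 37 tested, edgeR and DESeq2 each called 0, and at an unadjusted p under 0.05 edgeR had 2 higher and 2 lower in siArid3a, against 14.9% of all genes tested. Of the 37, 24 had log2 fold changes above 0, against 48.9% of all genes tested, and the median was 0.063, against -0.006 for all genes tested. The groups did not overlap in 7 of them (18.9%), all higher in siArid3a, against 20.0% of all genes tested, 9.66% higher and 10.4% lower. The activator genes Psme1 and Psme2, whose products form the interferon-inducible cap, had lower means in siArid3a. Psme1 had 84.4, 88.9 and 75.8 CPM in siArid3a libraries 1 to 3, against 107, 97.8 and 88.4 CPM in control libraries 1 to 3 (log2 fold change -0.24, SE 0.09, edgeR adjusted p = 0.241). Psme2 had 149, 139.5 and 132 CPM in siArid3a libraries 1 to 3, against 182, 202 and 148 CPM in control libraries 1 to 3 (log2 fold change -0.34, SE 0.10, edgeR adjusted p = 0.154). In each of them 1 siArid3a value lay just above the lowest control value, so the groups overlapped. Psme3, the nuclear activator, averaged 205 ± 12.3 CPM in siArid3a libraries and 185 ± 6.70 CPM in control libraries (log2 fold change 0.15, SE 0.08, edgeR adjusted p = 0.358). Psme4 averaged 106 ± 7.14 CPM in siArid3a libraries and 95.1 ± 2.12 CPM in control libraries (log2 fold change 0.15, SE 0.08, edgeR adjusted p = 0.37; SD, n = 3 each).

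Among assembly and regulatory genes, Ecpas, a scaffold that binds the proteasome under stress, had 152, 145 and 171 CPM in siArid3a libraries 1 to 3, against 137, 133 and 130.0 CPM in control libraries 1 to 3. All its siArid3a values lay above all control values, without a call (log2 fold change 0.23, SE 0.08, edgeR adjusted p = 0.199). Ddi2, the protease that activates Nfe2l1, had 84.6, 90.3 and 92.2 CPM in siArid3a libraries 1 to 3, against 78.0, 74.3 and 82.5 CPM in control libraries 1 to 3 (log2 fold change 0.19, SE 0.08, edgeR adjusted p = 0.29). Nfe2l1 itself averaged 729 ± 46.4 CPM in siArid3a libraries and 780.5 ± 53.4 CPM in control libraries (log2 fold change -0.10, SE 0.09, edgeR adjusted p = 0.625). Pomp, the core maturation protein, averaged 106 ± 11.1 CPM in siArid3a libraries and 103 ± 10.2 CPM in control libraries (log2 fold change 0.04). Akirin2, which brings proteasomes into the nucleus, averaged 119 ± 3.49 CPM in siArid3a libraries and 108 ± 20.0 CPM in control libraries (log2 fold change 0.15; SD, n = 3 each).

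The immunoproteasome subunits stood apart from the constitutive ones in level. Psmb9, which replaces Psmb6 in the immune form, had 2.01, 2.75 and 1.58 CPM in siArid3a libraries 1 to 3, against 5.73, 4.35 and 3.82 CPM in control libraries 1 to 3. Psmb8, which replaces Psmb5, had 3.88, 5.85 and 4.73 CPM in siArid3a libraries 1 to 3, against 10.5, 7.43 and 6.60 CPM in control libraries 1 to 3. In both genes all siArid3a values lay below all control values. Summed, they came to 5.89, 8.60 and 6.31 CPM in siArid3a libraries 1 to 3, against 16.2, 11.8 and 10.4 CPM in control libraries 1 to 3, far below the sum of the constitutive core. Neither was called by edgeR (log2 fold change -1.14, SE 0.26, edgeR adjusted p = 0.112 for Psmb9; log2 fold change -0.77, SE 0.21, edgeR adjusted p = 0.131 for Psmb8). DESeq2 gave an adjusted p of 0.0263 for Psmb9 and 0.0665 for Psmb8, and edgeR after GC and length correction gave 0.0314 and 0.0509. Other genes cover the exons of Psmb8 except for 44.5%. No gene in the count table was listed as Psmb10, so it was not analysed. Beside them, single markers of other cell types were lower in siArid3a by DESeq2. The summed macrophage list, 6 of 7 genes listed and 4 tested, was 41.8 to 57.3 CPM in siArid3a libraries and 60.8 to 72.8 CPM in control libraries, with Adgre1 at 0 in siArid3a libraries 2 and 3 and control libraries 1 and 3. Most of that sum was Cd14, at 39.8 ± 6.43 CPM in siArid3a libraries and 54.5 ± 4.26 CPM in control libraries (DESeq2 adjusted p = 0.0299), while Cd68 averaged 5.56 ± 0.992 CPM in siArid3a libraries and 5.87 ± 0.327 CPM in control libraries and overlapped between the groups. The epithelial list was 35.2 to 39.8 CPM in siArid3a libraries and 48.1 to 54.0 CPM in control libraries, with Epcam at 0 in all libraries except control library 2. Most of that sum was Krt19, at 33.8 ± 2.59 CPM in siArid3a libraries and 44.3 ± 3.29 CPM in control libraries (DESeq2 adjusted p = 0.0398; SD, n = 3 each), and of the other 6 genes only Cdh1 averaged above 1 CPM in either group. The endothelial list was 16.6 to 24.98 CPM in siArid3a libraries and 20.5 to 30.2 CPM in control libraries. Not all markers were lower: of the 3 endothelial genes tested, 1 changed upward and 2 downward. Kdr, the upward one, had 0.785, 0.585 and 1.37 CPM in siArid3a libraries 1 to 3. Control libraries 1 to 3 held 0.156, 0.544 and 0.0579 CPM of Kdr, so its groups did not overlap. The rise in Kdr, 1.74 on the log2 scale, was not called by edgeR (adjusted p = 0.203). The part of these cell type markers in the result was not tested.

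**Figure D5:**
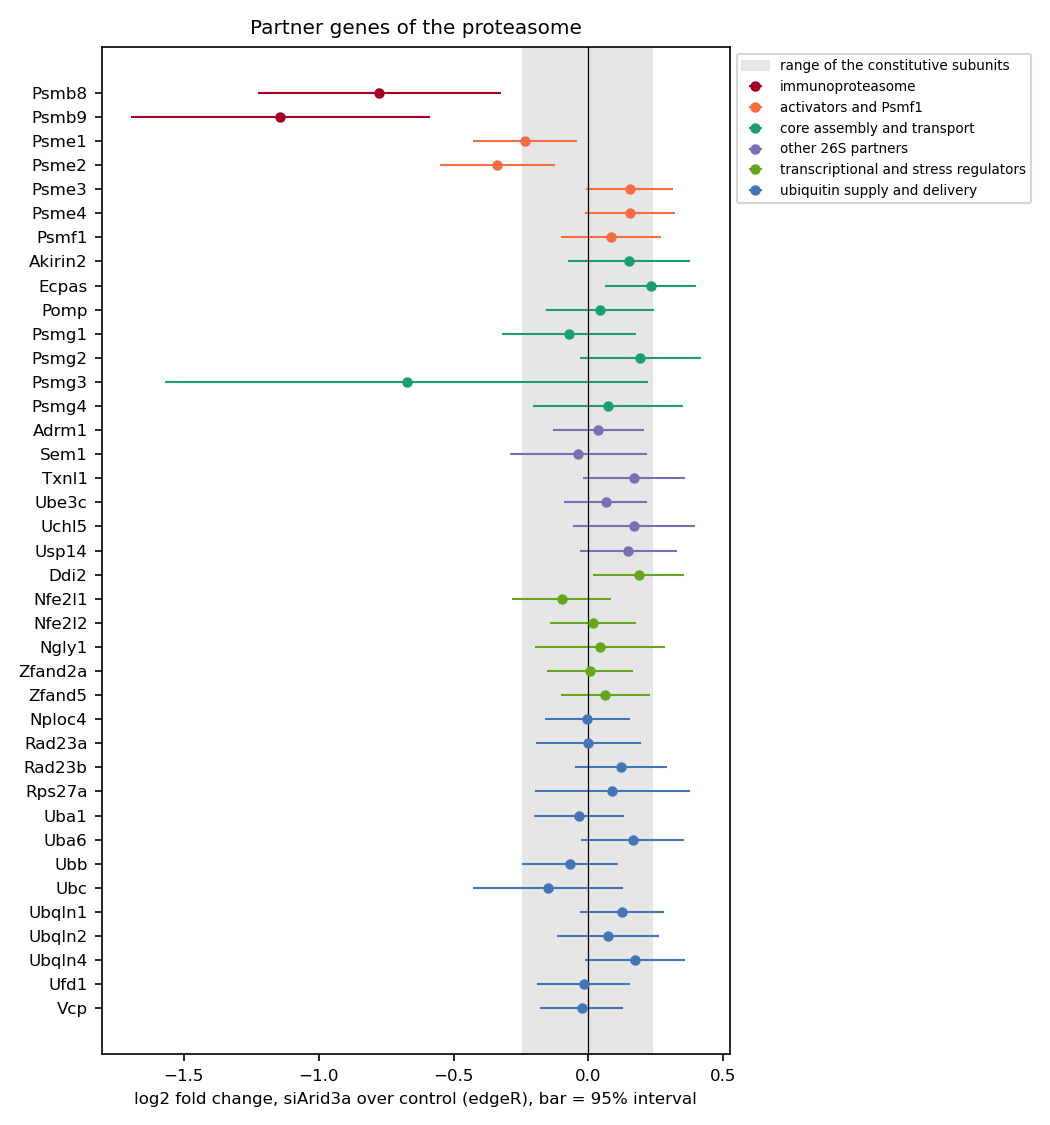
Log2 fold change of siArid3a over control (edgeR; point) with its 95% interval (bar) for the immunoproteasome subunits and the 37 other proteasome and ubiquitin genes tested, coloured by list, with the range of the 34 constitutive subunits as a grey band. Psmb8 and Psmb9 lie to the left of the band, and most of the other genes lie within it.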

How the data were processed

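Poly(A) RNA was captured from 1 µg of total RNA per sample, made into libraries for MGI sequencing, and deposited by the authors as whole-number read counts per gene for 6 libraries. The submitters' processing notes name STAR 2.7.3a, featureCounts and mm10. The sources used here give no annotation, strand setting or read filter. The length column of the deposited table spans introns, so kb of exon came from GENCODE M21 on GRCm38, which held 23134 of the 23197 identifiers.

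Counts were filtered (filterByExpr), scaled by TMM and tested with the robust quasi-likelihood fit of edgeR 4.0.16 in R 4.3.3, group as the only term, with Benjamini-Hochberg adjustment over the 13234 genes tested and a threshold of 0.05. The 95% intervals use the SE and degrees of freedom of that fit. Alternatives were DESeq2 1.42.0, limma-voom (limma 3.58.1), other scalings and filters, a replicate block, only genes with at least 90% of exonic bases outside other genes, GC and length correction (loess trend of log2 CPM removed in each library, span 0.4), and each library left out in turn. The edgeR, DESeq2, limma-voom, replicate block and GC and length correction fits were tested on simulated counts; the other scalings, filters and left-out libraries were not. Library deviations used log2 of CPM for the subunit genes. They used log2 of CPM plus 0.1 for the other lists, all genes, the GC quintiles and the values with the trend removed.

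Members, lists and motifs were chosen with earlier results of these data known. By rule, values in every library are given for the 3 smallest p in each particle, the catalytic subunits, the highest and lowest level per kb of exon and Arid3a; other genes given so were chosen after their values were seen. Where an exon is shared with another gene, or copies exist, counts can be split. Cover of exons by other genes was measured on the whole spans of those genes, introns included, on either strand. Totals were 17029735 to 22799935 counts per library.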

Additional observations from a re-analysis of the deposited data

How the results depend on the processing

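None of the 15 alternatives called a subunit gene. The count of all genes called, 0 by edgeR, was 218 with DESeq2, 400 after GC and length correction, 439 with no filter on low counts and 0 to 135 with 1 library left out; it was 0 in the other alternatives, and the cause was not tested. The core median log2 fold change was 0.011 to 0.077 with all libraries kept and -0.031 to 0.096 with 1 left out, and the regulatory particle median -0.006 to 0.061 and -0.020 to 0.046. The replicate numbers did not pair the libraries (correlations of the deviations of same-numbered libraries 0.03, -0.18 and -0.08), and the fit with the replicate block called 0 genes, with a core median of 0.026 and a regulatory particle median of 0.010. Signs turned only in subunit genes with an absolute log2 fold change of at most 0.060, in 14 of 300 values with all libraries kept and 37 of 204 with 1 left out, and 15 of the 34 genes never turned. After GC and length correction the log2 fold change was 0.0046 for Psmb1, 0.0384 for Psmb4, -0.0630 for Psmb7, -0.0019 for Psmd5, 0.0253 for Psmd7, 0.0249 for Psmd13 and 0.0481 for Arid3a. Scaled by library size alone it was -0.0128 for Psma6, -0.0148 for Psmb7, -0.0060 for Psmd1, -0.0103 for Psmd3, -0.0094 for Psmd4 and -0.0042 for Psmd5. With no filter on low counts it was -0.0006 for Psma6 and -0.0025 for Psmb7. With 1 library left out the log2 fold changes of genes whose sign turned ranged over Psma2 -0.1077 to 0.0983, Psma4 -0.1199 to 0.0941, Psma5 -0.0556 to 0.1706, Psma6 -0.0905 to 0.1197, Psma7 -0.0035 to 0.0996, Psmb1 -0.0821 to 0.0411, Psmb2 -0.0391 to 0.1037, Psmb4 -0.0883 to 0.0445, Psmb5 -0.0317 to 0.1164, Psmb6 -0.0089 to 0.0639, Psmb7 -0.0701 to 0.0587, Psmc4 -0.0283 to 0.0508, Psmd1 -0.0067 to 0.0457, Psmd13 -0.0749 to 0.0143, Psmd3 -0.0697 to 0.0486, Psmd4 -0.0493 to 0.0789, Psmd5 -0.0488 to 0.0853, Psmd6 -0.0196 to 0.1402 and Psmd7 -0.0712 to 0.0359, and those of Arid3a over -0.1278 to 0.0841. The level per kb of the longest principal transcript, in place of the union of exons, was chosen after seeing the data.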
